A study of Mus musculus with 48 samples.

Results

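Cyp2b9, Cyp2b10 and Cyp2b13 are the members of the mouse Cyp2b cytochrome P450 subfamily with rows in the deposited expression table. They were taken by gene symbol, 3 genes of 15041 in the table. Cyp2b19 and Cyp2b23, which lie in the same gene cluster, were not analysed here. Cytochromes of this subfamily are membrane-bound monooxygenases of the endoplasmic reticulum that oxidise drugs, steroids and other lipophilic compounds. Cyp2b10 is the classic target in mouse liver of the constitutive androstane receptor CAR (Nr1i3), a nuclear receptor that stays in the cytoplasm with heat shock proteins until phenobarbital-like compounds release it to bind DNA with its partner RXR. Cyp2b9 and Cyp2b13 are known in mice as genes expressed more in female than in male liver, a difference set by the pattern of growth hormone secretion.

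Liver RNA came from wild-type C57BL/6 mice and from a second set with the label SHP knockout, SHP being the orphan nuclear receptor encoded by Nr0b2, and the sex and age of the mice were not given in the labels. Mice of the ethanol groups were fed a Lieber-DeCarli liquid diet with 5% ethanol for 10 days and were given 5 g/kg ethanol by gavage at 9 am on day 11, while control mice took maltose in the diet and 9 g/kg maltose dextrin by gavage. Livers were collected after the gavage at 6 pm, midnight, 6 am and noon, so the noon livers were the last of the series. The 2 genotype labels, 2 treatments and 4 times made 16 groups of 3 livers, 48 libraries in all, each from a separate mouse. Levels are in FPKM, the reads of a gene scaled by its length and by the size of the library, and can be compared between genes.

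Libraries held 9605636 to 19780144 reads in genes, and no 2 libraries of the same group were duplicates. Nr0b2 was read in all livers, at 22.1 ± 9.6 FPKM in wild-type controls (SD, n = 12) and 21.8 ± 9.53 in knockout-labelled controls (n = 12), so the genotype rests on the label. The Y-linked genes Ddx3y and Eif2s3y were read in all 48 livers, at no less than 4.83 and 9.33 FPKM. Hepatocyte markers summed to 50500 FPKM or more in every liver. The sum of 3 neutrophil markers was 13.5 FPKM at most in wild-type livers and reached 186 in the knockout-labelled ethanol liver at 6 pm with replicate number 1. Its part in the results was not tested, and the leave-one-out values given below include the fit without that liver. In whole liver, fewer cells of a type and less RNA per cell cannot be told apart.

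On GRCm38 (GENCODE M21) the members lie on the plus strand of chromosome 7 in the order Cyp2b10, Cyp2b13, Cyp2b9. Cyp2b10 (ENSMUSG00000030483) spans 25897620 to 25926624, Cyp2b13 (ENSMUSG00000040583) spans 26061497 to 26096197, and Cyp2b9 (ENSMUSG00000040660) spans 26173411 to 26210661. The windows below run from 250 bases before to 50 after each gene's start as RefSeq places it (GRCm38.p6, plus strand, 5′ to 3′). They are shown because the promoters of Cyp2b9 and Cyp2b13 are almost the same sequence while the levels of the transcripts, given further on, differ. In ethanol livers these levels are about 100 times apart, with that of Cyp2b13 uncertain because the transcripts share stretches. Capitals mark matches to AGGTCA, the core motif of many nuclear receptors, and to TTGCNNAA, a C/EBP motif.
Cyp2b10, chr7:25897408-25897707: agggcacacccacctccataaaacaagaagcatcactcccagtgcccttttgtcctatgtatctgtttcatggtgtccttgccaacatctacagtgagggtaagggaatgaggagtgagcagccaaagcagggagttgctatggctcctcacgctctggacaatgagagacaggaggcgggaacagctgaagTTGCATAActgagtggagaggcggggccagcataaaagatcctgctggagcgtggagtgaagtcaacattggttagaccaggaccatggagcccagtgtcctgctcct
Cyp2b13, chr7:26061245-26061544: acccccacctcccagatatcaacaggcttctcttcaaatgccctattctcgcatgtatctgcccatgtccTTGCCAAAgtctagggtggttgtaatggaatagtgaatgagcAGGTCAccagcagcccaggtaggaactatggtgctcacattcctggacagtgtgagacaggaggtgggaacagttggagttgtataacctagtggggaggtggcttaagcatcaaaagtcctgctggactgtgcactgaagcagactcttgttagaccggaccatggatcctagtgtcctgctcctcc
Cyp2b9, chr7:26173159-26173458: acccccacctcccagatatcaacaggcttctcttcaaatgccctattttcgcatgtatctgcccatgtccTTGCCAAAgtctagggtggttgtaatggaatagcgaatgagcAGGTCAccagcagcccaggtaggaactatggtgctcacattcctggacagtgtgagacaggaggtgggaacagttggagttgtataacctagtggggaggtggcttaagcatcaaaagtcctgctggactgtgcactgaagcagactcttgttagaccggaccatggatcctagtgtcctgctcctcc

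The Cyp2b9 and Cyp2b13 windows were identical at 298 of 300 positions, and the changes from Cyp2b9 to Cyp2b13 were T48C and C104T, counted from 1 at the 5′ end of the window. A global alignment of the Cyp2b10 and Cyp2b9 windows had 223 identical and 66 mismatched positions. AGGTCA was found at position 113 in Cyp2b9 and Cyp2b13 and not in Cyp2b10, and 16.3% of 32851 RefSeq promoter windows of the same length hold it on either strand. TTGCNNAA was found at position 71 in Cyp2b9 and Cyp2b13 and at position 193 in Cyp2b10, and 10.8% of windows hold it. TTCNNNGAA, a STAT motif, and TATAAA, the TATA box core, were found in none of the 3 windows on either strand, against 8.3% and 13.6% of all windows. No motif match overlapped another.

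Aligned over their annotated length, the Cyp2b9 and Cyp2b13 transcripts were 91.9% identical outside gaps, and Cyp2b10 was 87.5% identical to Cyp2b9 and 88.6% to Cyp2b13. Of the 50-base stretches of Cyp2b9, the length of the reads, 10.8% occurred without a mismatch in Cyp2b13 and 0.547% in Cyp2b10. With up to 2 mismatches those shares were 32.9% and 16.1%. For Cyp2b13, 10.8% of stretches occurred in Cyp2b9 and 8% in Cyp2b10. The sources used here do not give how reads matching several genes were assigned. Low levels of Cyp2b13 beside high levels of Cyp2b9 or Cyp2b10 are uncertain, and so are low levels of Cyp2b9 beside high levels of Cyp2b10.

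Cyp2b10 was the most abundant of the 3 in wild-type ethanol livers. In wild-type controls it stood at 3.33, 1.04 and 0.646 FPKM at 6 am, 0.13, 0.291 and 0.869 at noon, 0.992, 1.71 and 0.457 at 6 pm and 1.84, 1.78 and 3.8 at midnight. In wild-type ethanol livers it stood at 14.2, 89.2 and 54.3 FPKM at 6 am, 48.7, 51.8 and 302 at noon, 718, 374 and 761 at 6 pm and 429, 158 and 205 at midnight. Every ethanol liver was above every control liver of this genotype. Here and below, overlap of livers is a description, since the share of all genes without overlap was not counted. The arm means were 1.41 ± 1.16 FPKM in controls and 267 ± 259 in ethanol livers (SD, n = 12 each), a ratio of 189.

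Under the knockout label Cyp2b10 controls lay in about the same range and ethanol livers lay lower. Controls stood at 6.75, 0.156 and 0.791 FPKM at 6 am, 0.261, 0.359 and 0.172 at noon, 1.11, 0.442 and 0.281 at 6 pm and 1.13, 2.71 and 0.801 at midnight. Ethanol livers stood at 6.66, 6.7 and 56.4 FPKM at 6 am, 2.16, 3.13 and 2.97 at noon, 26.4, 40.1 and 120 at 6 pm and 80.9, 20.7 and 39.9 at midnight. At noon, 6 pm and midnight the ethanol and control livers did not overlap, and at 6 am they did, through a single control liver at 6.75. With 3 livers a group this is a description only. The arm means were 1.25 ± 1.87 FPKM in controls and 33.8 ± 36.6 in ethanol livers (n = 12 each), a ratio of 27.

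Cyp2b9 was barely read in wild-type controls, with a median of 0.109 FPKM over 12 livers against 0.488 in the 12 knockout-labelled controls. Wild-type controls stood at 2.33, 0.343 and 0.108 FPKM at 6 am and between 0.0303 and 0.281 in the other 9 livers. Wild-type ethanol livers stood at 0.198, 39.4 and 5.5 FPKM at 6 am, 16.1, 3.77 and 107 at noon, 7.58, 3.47 and 90.5 at 6 pm and 132, 27.7 and 153 at midnight. The ethanol liver at 0.198 lay within the control range, and the other 11 were above all controls. Livers of the same group differed widely, from 3.47 to 90.5 FPKM at 6 pm. The values of 0.198 at 6 am and of 7.58 and 3.47 at 6 pm stood beside Cyp2b10 at 14.2, 718 and 374. They are uncertain, since these genes share stretches.

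In the knockout-labelled mice, Cyp2b9 stood at 0.356 to 5.38 FPKM in the 12 controls. Ethanol livers stood at 81.3, 14.2 and 59.1 FPKM at 6 am, 27.4, 7.63 and 17.9 at noon, 171, 41.2 and 46.1 at 6 pm and 198, 71.6 and 64.8 at midnight. All 12 were above all controls of this label. The arm means were 0.322 ± 0.64 FPKM in wild-type controls, 48.8 ± 56 in wild-type ethanol livers, 1.4 ± 1.75 in knockout-labelled controls and 66.7 ± 60.1 in knockout-labelled ethanol livers (SD, n = 12 each).

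Cyp2b13 was at the edge of detection. In controls it had 3 reads in all over the 12 wild-type livers and 4 over the 12 knockout-labelled ones, and 10 and 8 of these livers had none. A count of 0 allows up to 3 reads, which is 0.0808 to 0.166 FPKM in these libraries. In ethanol livers it had 152 reads over 12 wild-type and 211 over 12 knockout-labelled livers, with 51 and 86 reads in the highest liver of each. The highest values were 1.68 FPKM in wild-type and 2.46 FPKM in knockout-labelled ethanol livers, both at midnight, and 4 wild-type ethanol livers had no read. Reads over this gene were 0.934% of the Cyp2b13 and Cyp2b9 reads together in wild-type ethanol livers (exact 95% binomial interval 0.792 to 1.09%) and 0.804% in knockout-labelled ones (0.7 to 0.92%). These intervals cover counting error only. The plot of Cyp2b13 against Cyp2b9 reads shows that Cyp2b13 was read mainly where Cyp2b9 was high.

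**Figure D1:**
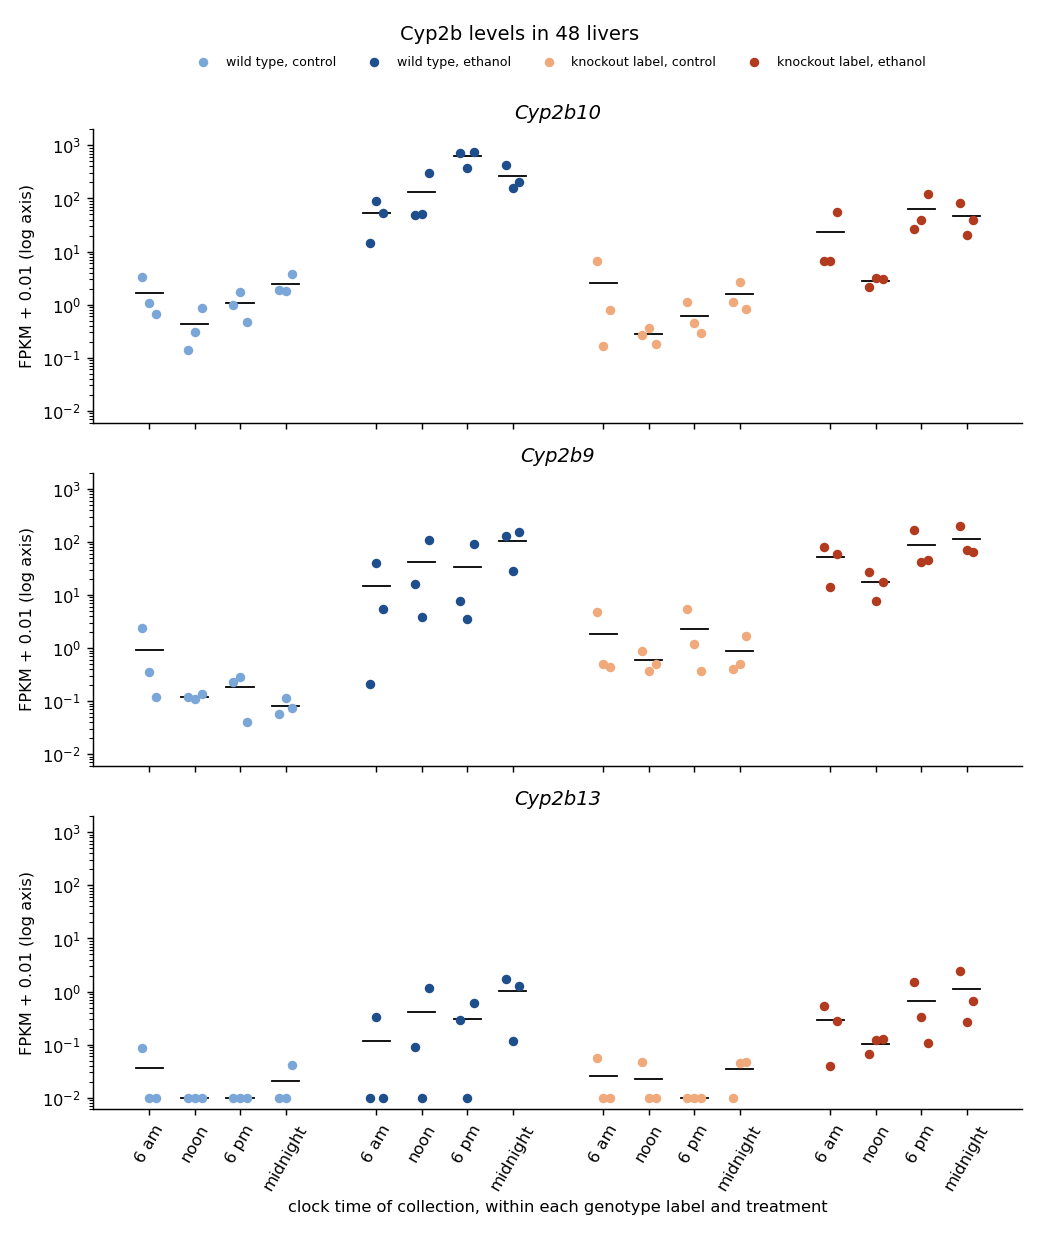
FPKM of each member in 48 livers (points; vertical log axis of FPKM + 0.01, so that 0 sits at the bottom) by genotype label, treatment and clock time, with the group mean of 3 livers as a line. Cyp2b10 in ethanol livers sits between 14.2 and 761 FPKM in wild type and between 2.16 and 120 under the knockout label, while Cyp2b9 sits between 0.198 and 153 in wild type and between 7.63 and 198 under the label.

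**Figure D2:**
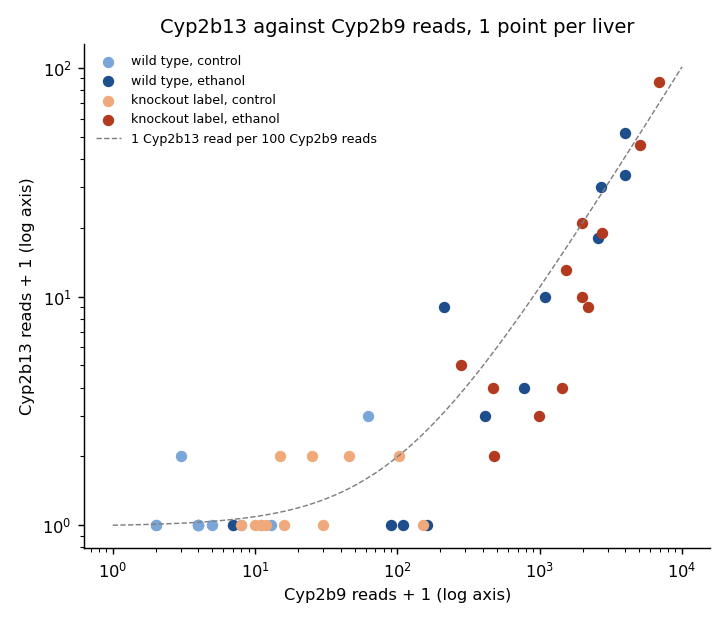
Cyp2b13 reads against Cyp2b9 reads, each plus 1 on log axes, with 1 point per liver and a dashed line at 1 Cyp2b13 read per 100 Cyp2b9 reads. The points with most Cyp2b9 reads lie near the line, and control livers have at most 2 Cyp2b13 reads.

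Ordered by group mean, the 8 ethanol groups took the 8 highest places among the 16 groups for each member. For Cyp2b10 the order ran from wild-type ethanol at 6 pm (618 ± 212 FPKM, SD, n = 3) through midnight (264 ± 145) and noon (134 ± 146) to knockout-labelled ethanol at 6 pm (62 ± 50.3). Knockout-labelled ethanol at noon (2.75 ± 0.521) was the lowest ethanol group, next to knockout-labelled controls at 6 am (2.57 ± 3.64). Neighbours in this order overlapped in range in 14 of 15 steps, and the exception was the step from knockout-labelled ethanol at 6 am to the same arm at noon. For Cyp2b9 the highest groups were knockout-labelled ethanol at midnight (112 ± 75.1) and wild-type ethanol at midnight (104 ± 67.1), and neighbours overlapped in 14 of 15 steps, the exception being that from knockout-labelled controls at noon to wild-type controls at 6 pm. All 15 steps overlapped for Cyp2b13, whose highest groups were the midnight ethanol groups, at 1.13 ± 1.17 and 1.02 ± 0.817 FPKM under the knockout label and in wild type.

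Ethanol raised Cyp2b10 and Cyp2b9 in both genotype labels, and most Cyp2b13 reads came from ethanol livers. The limma fit used log2(FPKM × scale factor + 0.5), with a scale factor for each library, over the 13765 genes tested. Adjustment was by Benjamini-Hochberg over them, with a threshold of 0.05. As the mean of the 4 times, 16.6% of genes were called higher and 13.7% lower in wild-type ethanol livers. Cyp2b10 rose by 6.56 on the log2 scale (SE 0.39, adjusted p = 1.44e-14), the largest rise or fall among the genes called. Cyp2b9 rose by 4.74 (SE 0.55, adjusted p = 3.22e-08) and ranked 4 by size. Cyp2b13 had a fitted difference of 0.71 (SE 0.21), a value that rests on the added constant, being 1.60 with 0.1 FPKM added and 0.26 with 2. It had 0.5 FPKM or more in 8 ethanol livers and in 0 controls, so it passed the filter on low values only through the group where it is high, and its ethanol effect is given as a description with no test.

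Under the knockout label, 16.8% of genes were called higher and 14.8% lower with ethanol. Cyp2b9 had the largest change among the genes called, a rise of 5.18 (SE 0.55, adjusted p = 1.9e-08). Cyp2b10 ranked 3 with a rise of 3.94 (SE 0.39, adjusted p = 5.23e-09), and Cyp2b13 had a fitted difference of 0.81 (SE 0.21; 1.94 with 0.1 FPKM added and 0.30 with 2). The FPKM of the members summed in each liver was 1.74 on average in wild-type controls and 316 in ethanol livers, and 2.66 and 101 under the knockout label. The mean difference of log2(summed FPKM + 0.5) was 6.64 in wild type and 4.92 under the knockout label, each with p = 1.25e-05 in a two-sided exact permutation test within times, the smallest p this test can give.

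The ethanol effect on Cyp2b10 differed between the genotype labels and that on Cyp2b9 was not shown to differ. For the difference of the effects, knockout label minus wild type, 3.69% of genes were called higher and 4.32% lower. Cyp2b10 had a difference of -2.62 (SE 0.55, adjusted p = 0.00313, limma), and ranked 14 by size among the genes called. Leaving out each liver in turn gave -2.88 to -2.37, with adjusted p no higher than 0.00602. A fit of the reads recovered from the FPKM by voom, limma's method for counts, gave a similar size, -2.45, and an adjusted p of 0.136 that missed the threshold. Cyp2b9 had a difference of 0.43 (SE 0.77, 95% interval -1.14 to 2, limma adjusted p = 0.794). The fitted difference of Cyp2b13 was 0.11, given with no test because this gene passed the filter only through ethanol livers. The sign of the Cyp2b9 difference turned with the added constant, to -0.20 with 0.1 FPKM.

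Without ethanol, the knockout label moved neither Cyp2b10 nor Cyp2b9 past the threshold, while 15.4% of genes were called higher and 16.9% lower. Cyp2b10 had a log2 difference of -0.41 (95% interval -1.2 to 0.39, adjusted p = 0.439) and Cyp2b9 one of 0.95 (interval -0.16 to 2.06, adjusted p = 0.182). That of Cyp2b9 passed the threshold when 0.1 FPKM was added (1.71, adjusted p = 0.0362) and when controls were fitted alone (0.95, adjusted p = 0.0231). Among ethanol livers, 12.6% of genes were called higher and 15.8% lower under the knockout label. Cyp2b10 was lower by -3.03 on the log2 scale (SE 0.39, adjusted p = 6.2e-07), and Cyp2b9 had a difference of 1.38 (interval 0.27 to 2.49, adjusted p = 0.0549), just short of the threshold. The Cyp2b9 difference passed it in voom (1.60, adjusted p = 0.0283), and when any 1 of 7 livers was left out, in a range of 1 to 1.75 over 48 such fits. These livers were wild-type ones numbered 0 at midnight, 1 at 6 am, 2 at noon and 2 at 6 pm, and knockout-labelled ones numbered 1 at 6 am, 1 at noon and 2 at 6 pm.

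The balance of Cyp2b10 and Cyp2b9 was compared by the ratio of their FPKM in each liver, a comparison chosen after their values were seen. Cyp2b10 exceeded Cyp2b9 in 12 of 12 wild-type controls and 12 of 12 wild-type ethanol livers. Under the knockout label it did so in 4 of 12 controls and 1 of 12 ethanol livers. The median ratio in ethanol livers was 7.06 in wild type (1.34 to 108) and 0.409 under the knockout label (0.0788 to 2.6), and in controls 6.04 (1.18 to 60) and 0.632 (0.207 to 5.52). The labels did not overlap at any time in ethanol livers, nor in controls at noon, 6 pm and midnight, and they overlapped in controls at 6 am. The control ratios rest on few reads. Cyp2b9 had 9, 14 and 6 reads over the 3 wild-type controls at noon, 6 pm and midnight. In noon controls the lowest wild-type ratio was 1.18 and the highest under the knockout label 0.977. The share of all genes that separate the labels in this way was not counted.

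As log2((Cyp2b10 + 0.5)/(Cyp2b9 + 0.5)), the ethanol livers averaged 3.01 in wild type and -1.39 under the knockout label, a difference of -4.40. Control livers averaged 1.18 and -0.17, a difference of -1.35. No p-value is given, since the ratio was chosen from the values of these same livers. In controls the size depended on the added constant, from -2.34 with 0.1 FPKM to -0.60 with 2. In ethanol livers it stayed between -4.59 and -4.00 with these constants. Cyp2b10 made up a median of 87.2% of the summed Cyp2b FPKM in wild-type ethanol livers and 28.8% in knockout-labelled ones.

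**Figure D3:**
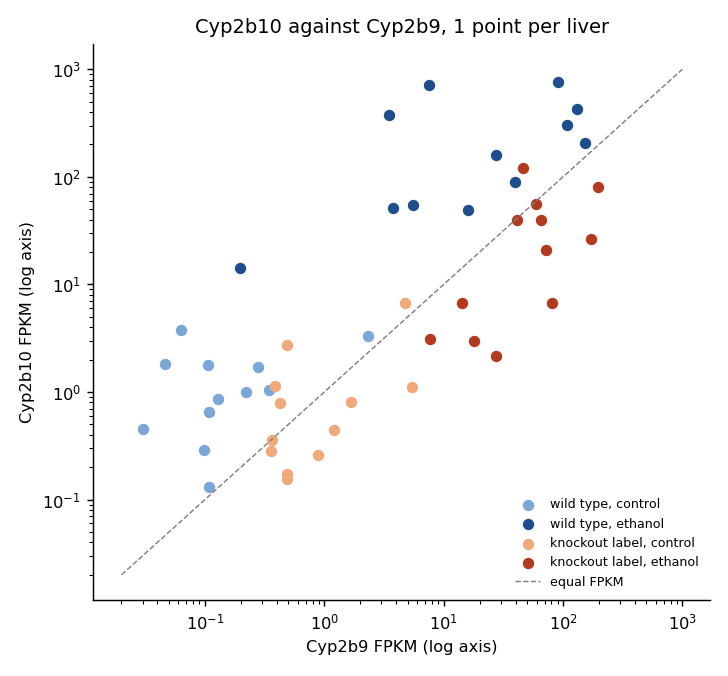
Cyp2b10 against Cyp2b9 FPKM on log axes, with 1 point per liver coloured by genotype label and treatment and a dashed line at equal FPKM. All 24 wild-type livers lie above the line, and 5 of the 24 knockout-labelled livers do.

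At single times, each with 3 livers a group, ethanol raised Cyp2b10 in every test. In wild type its log2 changes were 4.55 at 6 am, 6.77 at noon, 8.58 at 6 pm and 6.34 at midnight (SE 0.78 each, limma adjusted p no higher than 0.000204), where 7.34%, 4.41%, 9.75% and 5.45% of genes were called higher. It ranked 7, 1, 1 and 2 by size at these times. Under the knockout label the changes were 3.16, 2.36, 5.86 and 4.40 (SE 0.78 each, adjusted p 0.00954, 0.0275, 1.91e-05 and 0.000868), where 4.75%, 12.7%, 3.33% and 3.94% of genes were called higher. The calls at 6 am and noon under the knockout label were not stable. That at 6 am was lost without the control liver with replicate number 1 (2.44, adjusted p = 0.105) or the ethanol liver with number 2 (2.10, adjusted p = 0.165). That at noon was lost without any 1 of the 3 controls or of the ethanol livers numbered 0 and 1 (2.22 to 2.50, adjusted p 0.0511 to 0.0987) and with 1 or 2 FPKM added, voom or separate fits.

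Cyp2b9 rose at noon (5.06), 6 pm (4.39) and midnight (7.16) in wild type (SE 1.09 each, adjusted p 0.00324, 0.00473 and 4.14e-05, limma). At 6 am its wild-type change was 2.36 (95% interval 0.14 to 4.58, adjusted p = 0.163), and it was 3.88 (adjusted p = 0.0211) without the ethanol liver at 0.198 FPKM, which has replicate number 0. The 6 pm call was lost without the liver at 90.5 FPKM, replicate number 2 (3.08, adjusted p = 0.0746). The other ethanol livers at 6 pm held low Cyp2b9 beside high Cyp2b10, so this call also carries the limit of shared reads. Under the knockout label Cyp2b9 rose at all times, by 4.83, 4.28, 5.37 and 6.22 from 6 am to midnight (adjusted p 0.00484, 0.00504, 0.00222 and 0.000808). In voom the wild-type calls at noon, 6 pm and midnight and the knockout-label calls at 6 am and noon were lost, at larger estimates (7.31, 6.53, 9.79, 5.70 and 5.31, adjusted p 0.0644 to 0.278). The fitted differences of Cyp2b13 were largest at midnight, 1.38 in wild type and 1.32 under the knockout label, the time of the highest Cyp2b9 levels.

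Cyp2b10 was lower under the knockout label in ethanol livers at noon (-4.67, adjusted p = 0.000277), 6 pm (-3.31, adjusted p = 0.00272) and midnight (-2.65, adjusted p = 0.0219), with SE 0.78 each, where 1.24%, 13.5% and 8.43% of genes were called lower. At 6 am the difference was -1.47 (95% interval -3.06 to 0.12, adjusted p = 0.325), and 2.67% of genes were called lower. The midnight call was lost without the wild-type liver with replicate number 0 (-2.17, adjusted p = 0.106) or the knockout-labelled ones numbered 1 and 2 (-2.20 and -2.66, adjusted p 0.0904 and 0.0506). Cyp2b9 had differences of 2.98 at 6 am, -0.10 at noon, 2.51 at 6 pm and 0.13 at midnight, none called. That at 6 am was called without the wild-type ethanol liver numbered 1 (4.46, adjusted p = 0.0158), and that at 6 pm without the wild-type one numbered 2 (3.82, adjusted p = 0.0193). In controls neither Cyp2b10 nor Cyp2b9 was called at any time. There 2.59%, 13.1%, 5.81% and 1.57% of genes were called in either direction from 6 am to midnight.

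**Figure D4:**
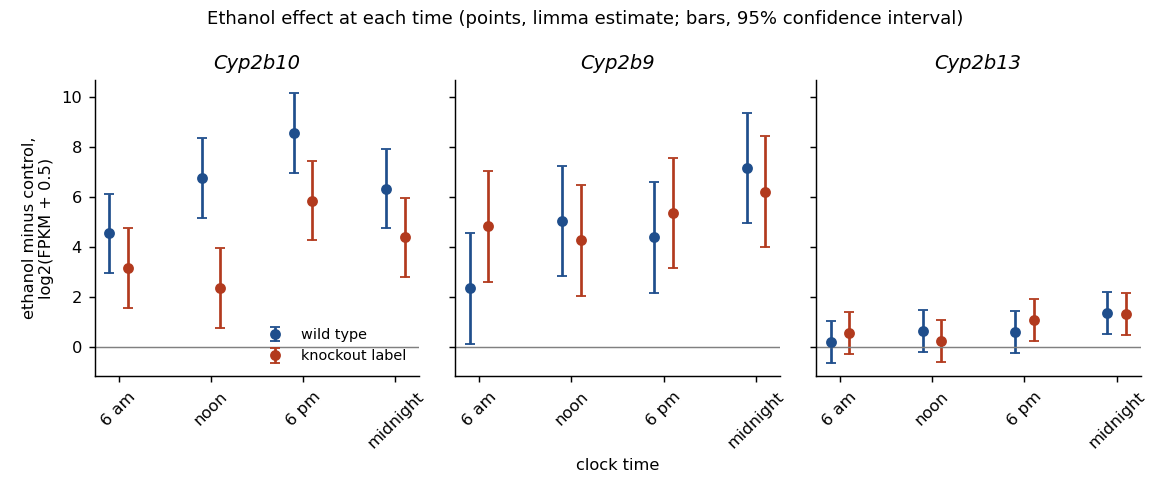
Ethanol effect on each member at the 4 clock times in wild type and under the knockout label, from 3 livers a group. Points are the limma estimate of the difference in log2(FPKM × scale factor + 0.5) and bars the 95% confidence interval. Cyp2b10 peaks at 6 pm under both labels, at 8.58 and 5.86, and Cyp2b13 stays within 0.2 to 1.38.

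Cyp2b10 differed between the collection times in ethanol livers. Its group means on the log2 scale spanned 3.8 over the 4 times in wild-type ethanol livers (adjusted p = 0.00373, limma, 3 contrasts tested jointly), where 20.3% of genes were called, and 4.02 in knockout-labelled ethanol livers (adjusted p = 0.000816), where 38.2% were called. The highest time was 6 pm in both arms, the earliest collection after the gavage, and the lowest was 6 am in wild type and noon under the knockout label. In controls the spans were 1.77 and 1.33 (adjusted p 0.46 and 0.495), where 8.35% and 12.7% of genes were called. Cyp2b9 spanned 3.86 in wild-type ethanol livers (adjusted p = 0.0529) and 2.27 in knockout-labelled ones (adjusted p = 0.246), and its highest time was midnight in both. The time dependence of the ethanol effect itself was called for neither Cyp2b10 nor Cyp2b9. For it 10.6% of genes were called in wild type and 10.9% under the knockout label. Cyp2b10 had adjusted p of 0.07 and 0.0977 there, and in wild type passed the threshold with 1 or 2 FPKM added (adjusted p 0.0495 and 0.0324) and without the 6 am livers numbered 1 in wild-type ethanol, 0 in knockout-labelled controls or 2 in knockout-labelled ethanol (adjusted p 0.035, 0.0451 and 0.0387). The last of these livers also brought the knockout-label value past it (3.75, adjusted p = 0.0299). Time after the gavage and clock time cannot be told apart.

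The values of Cyp2b9 and Cyp2b13 varied together among livers of the same group. Over the deviations of 48 livers from their group means, Pearson's r was 0.69 and Spearman's rho 0.72, and r was 0.72 without the 2 farthest livers. These 2 genes share reads, as above, so the values are a description with no test. The part of shared reads in them was not tested. Cyp2b9 and Cyp2b10 also share stretches, so their values are likewise a description with no test. For this pair r was 0.58 and rho 0.51, and r was 0.50 without the 2 farthest livers. In the 24 ethanol livers alone r was 0.56 and rho 0.39, with r 0.42 without the 2 farthest. In the 24 controls r was 0.70 and rho 0.61, with r 0.55 without the 2 farthest.

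Among 11238 genes with a mean of at least 1 FPKM, those most like each member were ranked by the same deviations, as a description over 48 livers that share 16 groups. Among the genes most like Cyp2b9 were Cyp2a4 (r 0.668), a steroid hydroxylase gene known as female-predominant in mouse liver, Defb1 (0.647), Tusc1 (0.628) and Nudt16 (0.614). Cyp2b10 was most like Tusc1 (0.672), Abcd4 (0.664), Ndst2 (0.657), 2210408F21Rik (0.653) and Nudt16 (0.64). Over the 16 group means Cyp2b9 was most like Cyp2a4 (Spearman's rho 0.935), and Cyp2b10 was most like the retinoic acid hydroxylase Cyp26a1 (0.918) and the CAR target Cyp2c29 (0.903). The r with Nr1i3 was 0.499 for Cyp2b9, 0.523 for Cyp2b10 and 0.272 for Cyp2b13. For the members in this order it was 0.378, 0.468 and 0.396 with Por and 0.278, 0.622 and 0.074 with Cyp2a5. With Cyp2c29 it was 0.017, 0.442 and 0.056, and with Nr1i2 0.107, 0.163 and 0.257. With Nr0b2 it was -0.238, -0.226 and 0.157, and with Bcl6 -0.2, 0.082 and -0.041. Cyp2b13 was most like Cyp2b9 by both measures (r 0.694, rho 0.9).

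The receptor gene Nr1i3 stood at 53.6 ± 6.51 FPKM in wild-type controls, 92.9 ± 21.1 in wild-type ethanol livers, 45.3 ± 20.2 in knockout-labelled controls and 77.9 ± 20.3 in knockout-labelled ethanol livers (SD, n = 12 each). It rose with ethanol by 0.77 in wild type and 1.10 under the knockout label (log2, adjusted p 2.92e-06 and 1.54e-08, limma), and the difference of these effects was 0.33 (adjusted p = 0.223). The label difference for Nr1i3 was -0.49 in controls (adjusted p = 0.00126) and -0.17 in ethanol livers (adjusted p = 0.276). Rxra, the gene of its partner, rose by 0.22 and 0.33 (adjusted p 0.00498 and 6.94e-05). Nr1i2, which encodes the related receptor PXR, had changes of -0.01 and 0.01 (adjusted p 0.97 and 0.977). The chaperone genes Hsp90aa1 and Hsp90ab1, whose proteins hold CAR in the cytoplasm, rose in wild type by 0.74 and 0.55 and had differences between labels of -0.91 and -0.53 (adjusted p 0.00062 and 0.00291). Egfr, the receptor whose signalling keeps CAR inactive, fell by 1.25 in wild type and had a difference of 1.91 (limma adjusted p = 0.000232). Its controls differed already, at 59.3 ± 23.5 FPKM in wild type and 24.7 ± 9.51 under the knockout label. With ethanol Egfr stood at 25.1 ± 12.1 and 31.4 ± 6.87 FPKM (SD, n = 12 each). Of the 27 genes of CAR, its partners and regulators, 7 were called higher and 4 lower in wild type, against 16.6% and 13.7% of all genes tested, and 8 and 2 under the knockout label, against 16.8% and 14.8%. The share called lower in wild type was thus near that of all genes. The knockout-label counts turned to 1 and 13 when FPKM were used as deposited, a scaling that moved the median of all genes in this contrast from 0.004 to -0.203.

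Other known targets of CAR and PXR also rose with ethanol, 34 of 39 in wild type with 0 lower (median log2 change 1.30; 0.005 over all genes tested, of which 16.6% were called higher). Under the knockout label 20 were called higher and 4 lower (median 0.54; 0.004 over all genes, of which 16.8% were called higher and 14.8% lower), and with FPKM as deposited 18 and 8. For the difference between labels 0 were called higher and 14 lower (median -0.69; -0.003 over all genes, of which 4.32% were called lower). In ethanol livers 23 were lower and 1 higher under the knockout label, where 15.8% and 12.6% of all genes were. In controls 11 were higher and 8 lower under the label, where 15.4% and 16.9% of all genes were. In wild type Abcc4, an efflux transporter, rose by 2.95 and the glutathione transferase genes Gstm3, Gstm1 and Gsta2 by 3.41, 2.17 and 2.91 (adjusted p no higher than 4.98e-11). Gstm3, Gsta1 and Cyp2c55 had differences between labels of -3.12, -3.31 and -2.38 (limma adjusted p 3.44e-06, 0.00062 and 0.000168). Their control means were also higher under the knockout label. They were 144 ± 138, 3.78 ± 3.05 and 2.66 ± 3.45 FPKM, against 17.2 ± 3.73, 0.162 ± 0.101 and 1.19 ± 0.472 in wild type (SD, n = 12 each). Cyp3a11, the main PXR target among P450 genes, rose by 0.62 in wild type and fell by 0.91 under the knockout label, with a difference of -1.53 (adjusted p = 0.000499), and its control level was higher under the label by 1.60 (adjusted p = 4.83e-08). Cyp2c29 rose by 2.42 and 2.43 (difference 0.02, SE 0.34, adjusted p = 0.983), from a control level of 377 ± 105 FPKM in wild type and 118 ± 31.8 under the knockout label. Por, which passes electrons to all microsomal P450 enzymes, rose by 1.48 and 0.95 (adjusted p 7.69e-08 and 0.000101).

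Some neighbours of the members on chromosome 7 rose with ethanol too. Of the 16 tested genes of the cluster and its flanks other than the members, 7 were called higher and 1 lower in wild type, against 16.6% and 13.7% of all genes tested. In the knockout-labelled arm 6 and 1 were called (4 and 5 with FPKM as deposited), against 16.8% and 14.8%, and 0 and 2 for the difference, against 3.69% and 4.32%. Cyp2a22, a Cyp2a gene of this cluster, rose by 5.26 in wild type and 1.98 under the knockout label, a difference of -3.29 (SE 0.33, adjusted p = 1.15e-07), which like that of Cyp2b10 was negative. It stood at 0.555 ± 0.323 FPKM in wild-type controls, 40.2 ± 15.8 in wild-type ethanol livers and 3.17 ± 1.63 in knockout-labelled ethanol livers. Cyp2a4, the next Cyp2 gene after Cyp2b9, rose by 2.66 and 2.78 (difference 0.12, SE 0.57, adjusted p = 0.927). Cyp2a5, the coumarin hydroxylase, rose by 3.89 and 2.98 (difference -0.92, SE 0.38, adjusted p = 0.133). Of the Cyp2a4 50-base stretches 36.1% occur in Cyp2a5, and of those of Cyp2a22 and Cyp2a12 20.2% and 20.1% occur in another Cyp2a or Cyp2b gene, so the values of these genes are uncertain. Cyp2a12 had a smaller difference of -0.45 (adjusted p = 0.014). On either side, Cyp2s1 and Cyp2f2 were not called in either label (changes of -0.09 and -0.36 in wild type, 0.05 and -0.46 under the label).

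**Figure D5:**
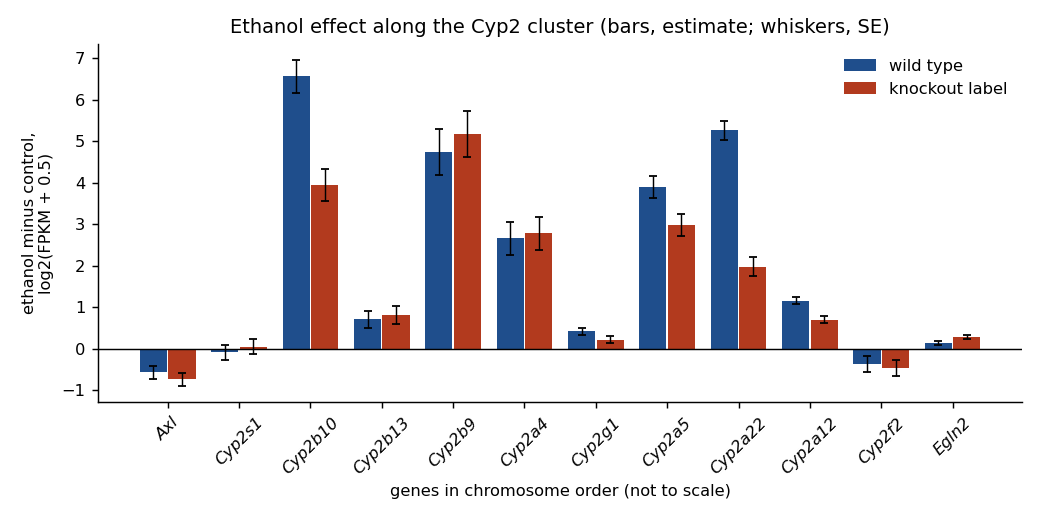
Ethanol effect on 12 tested genes from Axl to Egln2 in their order on chromosome 7, in wild type and under the knockout label. Bars are the limma estimate of the difference in log2(FPKM × scale factor + 0.5) and whiskers the SE. Cyp2b10 and Cyp2a22 have much taller bars in wild type, 6.56 against 3.94 and 5.26 against 1.98, and those of Cyp2b9 and Cyp2a4 lie within 1 SE of each other.

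Cyp2b9 and Cyp2b13 belong to the genes known to be higher in female liver, and other such genes were counted beside them. Of all genes tested, 16.6% were called higher and 13.7% lower with ethanol in wild type (median 0.005) and 16.8% and 14.8% under the knockout label (median 0.004). Of 26 tested, 18 were called higher and 1 lower with ethanol in wild type (median 0.70), and 18 and 2 under the knockout label (median 0.90; 14 and 2 with FPKM as deposited). Cux2, a transcription factor of female liver, was named after its values were seen and is given with no test. In wild type it stood at 0.184 ± 0.407 FPKM in controls and 0.95 ± 0.989 in ethanol livers. Under the knockout label it stood at 0.272 ± 0.42 and 2.93 ± 3.3 (SD, n = 12 each). The fitted changes were 0.91 and 1.77. For the difference between labels 1 was called higher and 3 lower, against 3.69% and 4.32% of all genes. Of 24 genes known to be higher in male liver, 0 were called higher and 20 lower in wild type (median -1.76), and 1 and 13 under the knockout label (median -0.96). Mup20, a major urinary protein gene, stood at 3380 ± 888 FPKM in wild-type controls and 415 ± 291 in ethanol livers (SD, n = 12 each). In knockout-labelled controls 17 of the 24 had lower and 0 had higher levels than in wild-type controls (median -1.12), against 16.9% and 15.4% of all genes (median -0.009). Of 18 genes of growth hormone signalling and sex-dependent regulation, 4 were called higher and 4 lower in wild type, and 8 and 5 under the knockout label (3 and 7 with FPKM as deposited). Stat5b, which carries the male growth hormone signal, fell by 0.27 in wild type (adjusted p = 0.00467) and had a change of -0.12 under the knockout label (adjusted p = 0.23). Bcl6, a male-predominant repressor of female liver genes, had a wild-type change of -0.12 (adjusted p = 0.787) and fell by 0.82 under the knockout label (adjusted p = 0.0276), and the difference was -0.69 (adjusted p = 0.319).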

How the data were processed

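RNA sequencing of 48 mouse livers was analysed. Per the labels' protocols, RNA was purified with Direct-zol, poly(A) libraries were made with the unstranded TruSeq v2 kit, and single reads of 50 cycles were sequenced. Novoalign and GRCm38 are named in the submitters' processing notes, without a version. The authors deposited FPKM per gene, per the file headers. The rule for reads matching several genes and the annotation are not given in the sources used here. Groups and replicate numbers came from the titles and clock times from the time label. A treatment tag that followed the time and disagreed with 24 titles was not used.

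Whole reads were recovered from the FPKM of all 15041 genes (relative tolerance 1e-09), giving 9605636 to 19780144 reads per library. The lengths they imply, 2112 bases for Cyp2b10 and 1876 for Cyp2b9 and Cyp2b13, are within 1 base of the exon lengths of GENCODE M21. The planned test for FPKM was used: limma 3.58.1 (R 4.3.3) on log2(FPKM × scale factor + 0.5), with trimmed-mean scale factors of 0.807 to 1.295 and a mean-variance trend. Genes with at least 0.5 FPKM in 3 libraries were tested (13765; 1276 removed), in 1 fit of 16 group means. P-values were adjusted by Benjamini-Hochberg, with a threshold of 0.05. The added constant understates changes of low genes. Exact permutations kept samples within their time, and correlations of deviations from group means are given with no p-value (scipy 1.17.1). On simulated data for the wild-type ethanol contrast (13765 genes), 32.8% of genes changed 1.5-fold, 92.5% changed 2-fold and 100% changed 4-fold were recovered, with 9 of 13565 unchanged genes called. The changed genes were drawn only above a minimum expected read count, and all genes had the same dispersion. These rates do not carry over to the members, which had few reads in controls and varied widely within groups.

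The members and gene lists were chosen with earlier results of these data known. All members were described. From each list up to 6 genes with the smallest adjusted p in the contrast described could be named, with Nr1i3, Nr1i2, Rxra, Nr0b2, Por, Cyp2c29, Cyp3a11, Stat5b, Bcl6 and the genes of most similar pattern. Cux2, Cyp2s1, Cyp2f2 and some named values of other contrasts were given after their values were seen. Members of the lists missing from the table were not analysed here, and a gene of similar pattern is not reported here. Same-numbered ethanol and control livers of the same genotype label and time were compared by their deviations from the group means. The correlation was over 0.1 in 4 of 24 pairs and ranged from -0.567 to 0.447, with no test of these values. Replicate numbers were not taken as pairs. Alternatives were other constants, scalings, filters and fits, voom on recovered reads, a replicate block, leaving out each library, and the members summed.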

Additional observations from a re-analysis of the deposited data

Results flagged for a closer look

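The ethanol effect on Cyp2b10 differed between the genotype labels by -2.62 on the log2 scale (knockout label minus wild type, limma adjusted p = 0.00313), by the test of the difference itself. Its wild-type effect was 6.56 and its effect under the knockout label 3.94, each from 12 ethanol and 12 control livers. Groups of 3 livers are too small for a test of single outlying livers.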

How the results depend on the processing

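The label difference in the Cyp2b10 to Cyp2b9 ratio, a description, kept its direction in every alternative run. The ethanol rises of Cyp2b10 and Cyp2b9 over the 4 times kept their direction and side of the threshold in every one. The lower Cyp2b10 of knockout-labelled ethanol livers and the tests of summed FPKM also kept both. Of 969 alternative values for the members other than leave-one-out, 903 kept both, and of 3888 leave-one-out values 3817 did. The cause of the others was not tested, except that summing the members replaces a gene by a sum led by Cyp2b10 in wild type.

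The Cyp2b10 difference between labels missed the threshold in voom (-2.45, adjusted p = 0.136) and for the sum (-1.53, adjusted p = 0.0894). The Cyp2b9 difference reversed with 0.1 FPKM added (-0.20), in voom (-0.73) and for the sum (-1.53), as did that of Cyp2b13 for the sum (-1.53). The knockout label effect on Cyp2b9 passed the threshold in controls with 0.1 FPKM added (1.71) and in separate fits (0.95), and in ethanol livers in voom (1.60); for the sum it was -1.31, the reverse of Cyp2b9 and of Cyp2b13. That on Cyp2b10 in controls was 0.21 for the sum. Time of day in wild-type ethanol livers passed the threshold for Cyp2b9 with 1 and 2 FPKM added (3.57 and 3.22), a filter of 1 FPKM (3.86), voom (4.66) and the replicate block (3.86, adjusted p = 0.0489), and for the sum (3.63); under the knockout label the sum gave 2.86. The replicate block changed no other call, and the Cyp2b10 difference had an adjusted p of 0.00381 in it. Time dependence of the wild-type effect on Cyp2b10 passed with 1 and 2 FPKM added (3.97 and 3.88), with FPKM as deposited (4.19) and in separate fits (4.03).

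At single times the label effect reversed for Cyp2b10 in controls at 6 am with 1 and 2 FPKM added (0.02 and 0.08), and for the sum at 6 am (0.16), noon (0.31) and 6 pm (0.54) in controls and at 6 am in ethanol livers (0.38). It reversed for Cyp2b9 for the sum at 6 pm (-1.91) and midnight (-1.36) in ethanol livers and at midnight in controls (-0.17), and for Cyp2b13 at midnight in ethanol livers with 0.1 FPKM added (0.06), FPKM as deposited (0.05) and voom (0.29), at 6 am in controls in voom (0.25) and the sum (0.16), at 6 pm in ethanol livers (-1.91) and at midnight in controls (-0.17) for the sum.

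Leaving out 1 library gave these ranges. For Cyp2b9 they were 1 to 1.75 (label, ethanol livers), 2.52 to 5.34 (time of day, wild-type ethanol) and 3.29 to 6.29 (time dependence, wild type). For Cyp2b10 time dependence they were 3.25 to 4.64 in wild type and 2.89 to 3.99 under the label. For Cyp2b13 they were -0.04 to 0.24 (difference of effects), -0.03 to 0.25 (label, ethanol livers), and 0.75 to 1.72 and 0.82 to 1.5 (time of day in wild-type and knockout-labelled ethanol livers). At single times, label ranges that crossed 0 were, in ethanol livers, -0.67 to 0.53 and -1.20 to 1.11 for Cyp2b9 at midnight and noon, -0.60 to 0.37, -0.69 to 0.18 and -0.01 to 0.91 for Cyp2b13 at midnight, noon and 6 pm, and in controls -0.31 to 1.15 for Cyp2b9 at 6 am, -1.07 to 0.64 and -0.50 to 0.06 for Cyp2b10 at 6 am and noon, and -0.07 to 0.04 for Cyp2b13 at 6 am. The wild-type ethanol effect on Cyp2b13 at 6 am ranged from -0.07 to 0.33.

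With FPKM as deposited, genes called higher and lower numbered 542 and 6759 for ethanol under the knockout label (2306 and 2041 with scale factors), 193 and 3635 for the difference (508 and 594), 4135 and 812 for the label in controls (2124 and 2333) and 914 and 3615 in ethanol livers (1730 and 2169), and 2343 genes were called for time dependence under the label (1507). Separate fits gave 1862, 552 and 2929 genes for time of day in wild-type controls, knockout-labelled controls and knockout-labelled ethanol livers (1149, 1754 and 5253 in the joint fit), and 2552 and 195 for time dependence in wild type and under the label (1458 and 1507). Depth limits Cyp2b13, whose controls held at most 2 reads each.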

Other observations

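The wild-type ethanol liver at 6 am with replicate number 0 had Cyp2b10 at 14.2 FPKM, above every wild-type control, and Cyp2b9 at 0.198 FPKM, below the highest control (2.33), with no Cyp2b13 read. The liver with replicate number 1 of the same group held 39.4 FPKM of Cyp2b9 and 89.2 of Cyp2b10.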
